A study of Homo sapiens with 18 samples.

Results

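Aminoacyl-tRNA synthetases are the enzymes that join each amino acid to its transfer RNA. The set examined here was 35 human genes, chosen by name and matched to probes by Entrez identifier, 19 for enzymes of the cytosol and 16 for enzymes of the mitochondrion. A named probe was found for 34 of them, and 33 of the 12975 genes tested in all were members, 18 cytosolic and 15 mitochondrial. CARS1 had no named probe. WARS2 was detected on only 1 array by the detection p-values used here, which were rederived for the WN arrays, and was not kept. With the deposited detection p-values it was kept, as 1 of 16 mitochondrial genes. The probe used for each of the 33 tested members was detected on all 18 arrays.

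RNA came from 2 established human neuroblastoma cell lines, IMR-32 and SK-N-SH, each a single line grown with fetal calf serum and added L-glutamine. Cells of each line received the solvent DMSO, 1 µM withaferin A (WA) or 1 µM withanone (WN) for 24 h, which gives 6 groups of 3 biological replicates, per the labels, on Illumina HumanHT-12 v4 bead arrays. The compounds are both withanolides, plant steroidal lactones that carry their epoxide and hydroxyl groups at different positions. The study concerns ferroptosis, an iron-dependent form of cell death, in high-risk neuroblastoma.

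Cytosolic synthetases serve the ribosomes that translate nuclear messages, and several of them sit together in a multisynthetase complex. A separate set, encoded in the nucleus and imported, charges the transfer RNAs of the mitochondrion, where it serves the translation of a few respiratory chain subunits. The transcription factor ATF4, translated preferentially when the integrated stress response is active, is known to drive many cytosolic synthetase genes together with genes of amino acid synthesis and import, and it binds composite C/EBP-ATF elements. Because the arrays measure RNA relative to the other RNA of a sample, they give neither the number of cells nor the total RNA per cell.

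One form of that composite element was searched as TGATGNAA on both strands of the RefSeq promoter windows of GRCh38.p14, from 250 bases before to 50 bases after each start, 300 bases in all. No window was given for 5 members, LARS1, VARS1, YARS1, AARS2 and VARS2. The motif occurred in 7 of 16 cytosolic genes with a window, 1 of 14 mitochondrial genes and 4.46% of 27305 genes. Its stricter form TGATGCAA, every match of which is also a match of TGATGNAA, occurred in 6 of 16 cytosolic genes, 0 of 14 mitochondrial genes and 1.08% of all genes. A match is a run of letters and not a measured binding site, and no test was made of these shares. The 8 matches are shown because the cytosolic genes that carry them are described together further on. Each run of 30 bases is written 5′ to 3′ on the strand of its gene, with the match or its reverse complement in capitals.
AARS1, chr16:70289675-70289704, minus strand: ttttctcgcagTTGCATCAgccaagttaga
CARS1, chr11:3057407-3057436, minus strand: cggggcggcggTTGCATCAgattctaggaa
GARS1, chr7:30594834-30594863, plus strand: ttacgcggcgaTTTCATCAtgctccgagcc
IARS1, chr9:92293692-92293721, minus strand: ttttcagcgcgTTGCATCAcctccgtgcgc
MARS1, chr12:57488053-57488082, plus strand: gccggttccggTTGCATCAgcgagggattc
NARS1, chr18:57621804-57621833, minus strand: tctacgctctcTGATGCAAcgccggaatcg
TARS1, chr5:33440956-33440985, plus strand: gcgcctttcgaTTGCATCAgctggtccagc
YARS2, chr12:32756076-32756105, minus strand: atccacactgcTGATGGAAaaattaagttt
The first base of the match lay 187 bases before the start in AARS1, 33 before it in GARS1, 13 in IARS1, 4 in MARS1 and 2 in CARS1. In TARS1 and NARS1 it lay at base 3 and base 15 after the start. The match of YARS2, the only mitochondrial gene among them, began 197 bases before the start. The start meant is that of the window with the match. GARS1 and TARS1 had 2 windows each, and the start of their matched window lay inside the gene span, not at its outer end.

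Values below are normalized log2 intensities of 1 probe per gene, and a difference is a mean of 3 arrays minus another on that log2 scale, given ± its standard error (n = 3 arrays per group). That error rests on 1 spread per gene, shared by all 6 groups and both lines. The residual standard deviation was larger in SK-N-SH for 25 of 33 members, for GARS1 0.49 against 0.13 in IMR-32. Shared errors can thus be too small in the wider line and too large in the other. Adjusted p-values come from limma with Benjamini-Hochberg adjustment over all 12975 genes, and a gene is said to have risen or fallen where that p was under 0.05. Arrays with WN had a lower highest signal, 19100.5 to 21479.9 against 29825.6 to 37328.5 on the other 12, and brightness and WN cannot be told apart. Of 7 adrenergic neuroblast markers with a probe, 6 were detected on every array of both lines, and TH was detected on 5 of 9 IMR-32 arrays and on 0 of 9 SK-N-SH arrays. Of 4 immune cell markers CD68 alone was detected on every array, while PTPRC, CD3E and LYZ were detected on at most 1 array of either line.

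WA changed the RNA of most cytosolic synthetase genes in SK-N-SH cells, mainly upward. Of 18 tested cytosolic genes 11 rose, 2 fell and 5 did not pass the test, with a median difference of 0.55. Over all genes 16.4% rose and 15.4% fell, with a median of 0.02. Of the 15 mitochondrial genes 1 rose, 5 fell and 9 did not pass, with a median of −0.10. No test of the difference between both classes was made, since the members were chosen with results of these data known. On single SK-N-SH arrays with WA the cytosolic median against the DMSO mean was 0.34, 0.63 and 0.44, and the mitochondrial median was −0.02, −0.26 and −0.01.

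**Figure D1:**
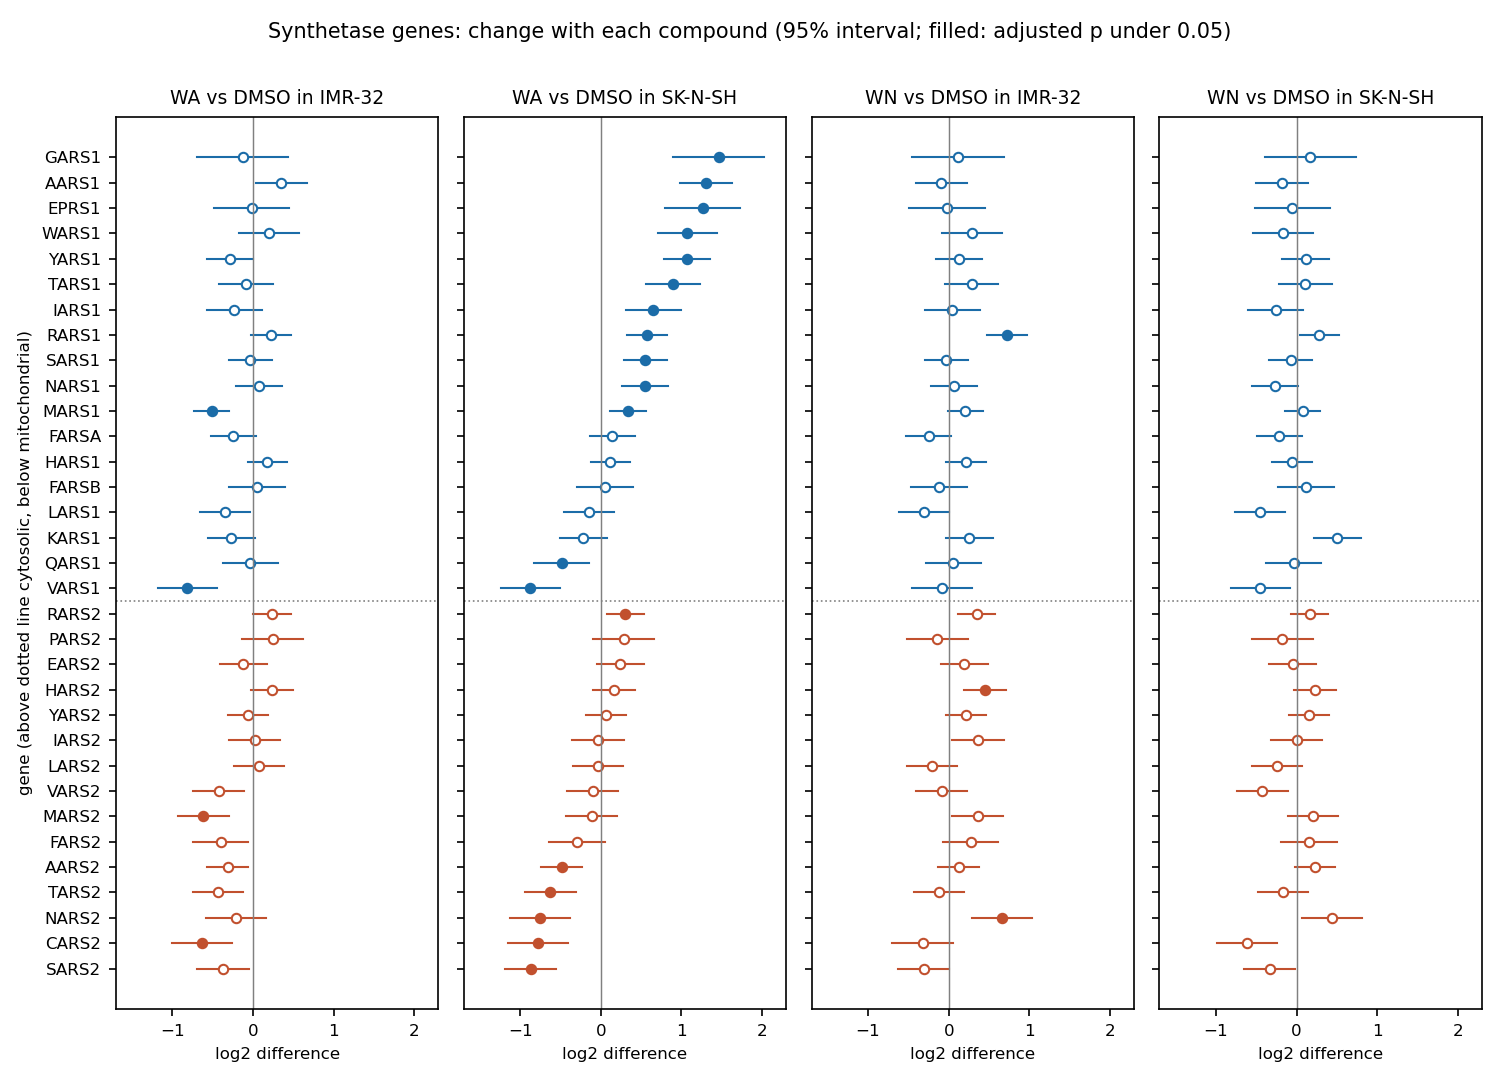
Log2 difference of each of the 33 tested synthetase genes (points) with its 95% interval (lines), for WA and WN against DMSO in each line, cytosolic genes above the dotted line and mitochondrial genes below it. Filled points passed an adjusted p of 0.05: 13 of 18 cytosolic and 6 of 15 mitochondrial genes with WA in SK-N-SH, and none of either class with WN in SK-N-SH.

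Alanyl-, glycyl- and glutamyl-prolyl-tRNA synthetase had the largest increases. AARS1, which charges alanine transfer RNA, read 11.22, 11.10 and 11.15 with DMSO in SK-N-SH and 12.11, 12.71 and 12.56 with WA. Every WA array thus lay above every DMSO array, and the difference was 1.30 ± 0.15, or 2.47-fold (adjusted p = 1.78e-05, limma). Groups were apart in this way, in either direction, for 12 of 18 cytosolic genes and for 35.8% of all genes. GARS1, whose gene encodes both the cytosolic and the mitochondrial glycyl enzyme, read 12.06, 12.38 and 11.66 with DMSO and 12.67, 14.07 and 13.74 with WA. The lowest WA array of GARS1 was 12.67 and the highest DMSO array 12.38, so the groups did not overlap although both were wide. The difference was 1.46 ± 0.27, or 2.75-fold (adjusted p = 0.000644, limma). EPRS1, a single protein that charges both glutamate and proline transfer RNA and is a part of the multisynthetase complex, read 11.11, 11.42 and 11.13 with DMSO and 11.88, 12.94 and 12.63 with WA. Its difference was 1.26 ± 0.22, or 2.40-fold (adjusted p = 0.000452, limma), again with no overlap.

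The genes of the tryptophanyl and tyrosyl enzymes, which are related in structure, both rose by 1.07. WARS1, also known as an interferon-induced gene, read 10.01, 9.70 and 9.89 with DMSO and 10.42, 11.14 and 11.26 with WA, a difference of 1.07 ± 0.17 (adjusted p = 0.000271, limma). A different probe of WARS1, detected on all 18 arrays, gave 1.00. YARS1 read 10.99, 10.78 and 10.77 with DMSO and 11.63, 12.09 and 12.03 with WA, a difference of 1.07 ± 0.14 (adjusted p = 4.31e-05, limma). For both genes all WA arrays were above all DMSO arrays. These 5 genes were the cytosolic members that rose at least 2-fold.

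The next group of increases lay between 0.34 and 0.89. TARS1, the threonyl enzyme, read 10.45, 10.20 and 10.34 with DMSO and 10.85, 11.58 and 11.23 with WA, a difference of 0.89 ± 0.16 (adjusted p = 0.000501, limma). IARS1, the isoleucyl enzyme of the multisynthetase complex, read 10.51, 11.09 and 10.62 with DMSO and 11.03, 11.48 and 11.66 with WA. Its groups overlapped, since DMSO replicate 2 lay above WA replicate 1, and the difference was 0.65 ± 0.16 (adjusted p = 0.00589, limma). A dimmer IARS1 probe, detected on 4 arrays, gave 0.36. RARS1 rose by 0.57, SARS1 by 0.55, NARS1 by 0.54 and MARS1 by 0.34, the enzymes of arginine, serine, asparagine and methionine. MARS1 read 10.42, 10.34 and 10.40 with DMSO and 10.66, 10.75 and 10.75 with WA, a small step with little spread (adjusted p = 0.0198, limma). That call was lost without DMSO replicate 2 (0.31, adjusted p = 0.0596), without WA replicate 2 (0.32, adjusted p = 0.0529) and without WA replicate 3 (0.32, adjusted p = 0.0586).

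Not every cytosolic gene took part. VARS1, the valyl enzyme, read 11.23, 10.94 and 10.96 with DMSO and 10.38, 9.65 and 10.48 with WA in SK-N-SH, so that all WA arrays were below all DMSO arrays. It fell by 0.87 (standard error 0.17, adjusted p = 0.00125, limma). A dim VARS1 probe, detected on 3 arrays, gave 0.13, and the mean of both probes gave −0.37. QARS1, the glutaminyl enzyme of the multisynthetase complex, read 12.57, 12.46 and 12.45 with DMSO and 12.45, 11.88 and 11.70 with WA. Its first WA array lay among the DMSO arrays, and the difference was −0.48 ± 0.16 (adjusted p = 0.0303, limma). The QARS1 call was lost without DMSO replicate 1 (−0.44, adjusted p = 0.0961), DMSO replicate 2 (−0.50, adjusted p = 0.0594), WA replicate 2 (−0.42, adjusted p = 0.106) or WA replicate 3 (−0.33, adjusted p = 0.16). FARSA and FARSB, the subunits of phenylalanyl-tRNA synthetase, gave 0.14 and 0.05, and HARS1, the histidyl enzyme, gave 0.12. LARS1, the leucyl enzyme, gave −0.15 and KARS1, whose gene also encodes the mitochondrial lysyl enzyme, gave −0.22, none of these 5 past the threshold. The 95% interval of the KARS1 difference ran from −0.51 to 0.07, and that of FARSB from −0.30 to 0.40.

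The cytosolic genes were also split by complex and by structural class. Of 7 tested members of the complex 4 rose and 1 fell with WA in SK-N-SH, with a median of 0.34, and of the other 11 cytosolic genes 7 rose and 1 fell, with a median of 0.55. Synthetases fall into class I and class II by the fold of their catalytic domain. Among 9 cytosolic genes of class I 6 rose and 2 fell, with a median of 0.57, and among 9 of class II 5 rose and 0 fell, with a median of 0.54. EPRS1, which rose and whose protein has a domain of either class, was counted in class I only.

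All 6 tested cytosolic genes with a match to the composite motif shown above (AARS1, GARS1, IARS1, MARS1, NARS1 and TARS1) rose with WA in SK-N-SH, with a median of 0.77. Of the 9 tested cytosolic genes with a window and no match 4 rose (EPRS1, RARS1, SARS1 and WARS1), 1 fell (QARS1) and the median was 0.14. Among all genes 16.4% rose and 15.4% fell in that comparison, and how many of all genes with a match rose was not counted. YARS1, which rose, VARS1, which fell, and LARS1 had no window and stand in neither count. YARS2, the mitochondrial gene with a match, gave 0.07 in SK-N-SH and did not pass. In IMR-32 cells 0 of the 6 genes with a match rose and 1, MARS1, fell, against 8.04% and 6.47% of all genes. These counts describe a few genes, and the part of the motif in the changes was not tested.

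Of the 6 mitochondrial synthetase genes that passed with WA in SK-N-SH, 5 were lower. SARS2, the mitochondrial seryl enzyme, read 9.72, 9.40 and 9.45 with DMSO and 8.81, 8.37 and 8.77 with WA, with no overlap. It fell by 0.87 (standard error 0.15, 1.83-fold, adjusted p = 0.000437, limma). NARS2, the asparaginyl enzyme, read 8.81, 8.43 and 8.63 with DMSO and 8.31, 7.77 and 7.53 with WA, a difference of −0.75 ± 0.18 (adjusted p = 0.00396, limma). CARS2, the cysteinyl enzyme, also described as a producer of persulfides, read 6.91, 6.69 and 7.16 with DMSO and 6.16, 6.19 and 6.07 with WA, a difference of −0.78 ± 0.18 (adjusted p = 0.00329, limma). For NARS2 and CARS2 too, every WA array lay below every DMSO array. Groups were apart, in either direction, for 6 of 15 mitochondrial genes against 35.8% of all genes, so that count says nothing particular about them. TARS2, the threonyl enzyme, differed by −0.63 ± 0.15, and AARS2, the alanyl enzyme, by −0.49 ± 0.12.

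RARS2, the mitochondrial arginyl enzyme, was the single one that rose. It read 10.21, 10.28 and 10.01 with DMSO and 10.51, 10.50 and 10.39 with WA, a difference of 0.30 ± 0.11 (adjusted p = 0.0437, limma). The RARS2 call was lost without any 1 of 5 arrays, at adjusted p = 0.0725 and 0.162 without DMSO replicates 1 and 3 and at 0.0796, 0.106 and 0.0538 without WA replicates 1, 2 and 3. The 9 members that did not pass, FARS2, MARS2, VARS2, LARS2, IARS2, YARS2, HARS2, EARS2 and PARS2, lay between −0.30 and 0.28.

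**Figure D2:**
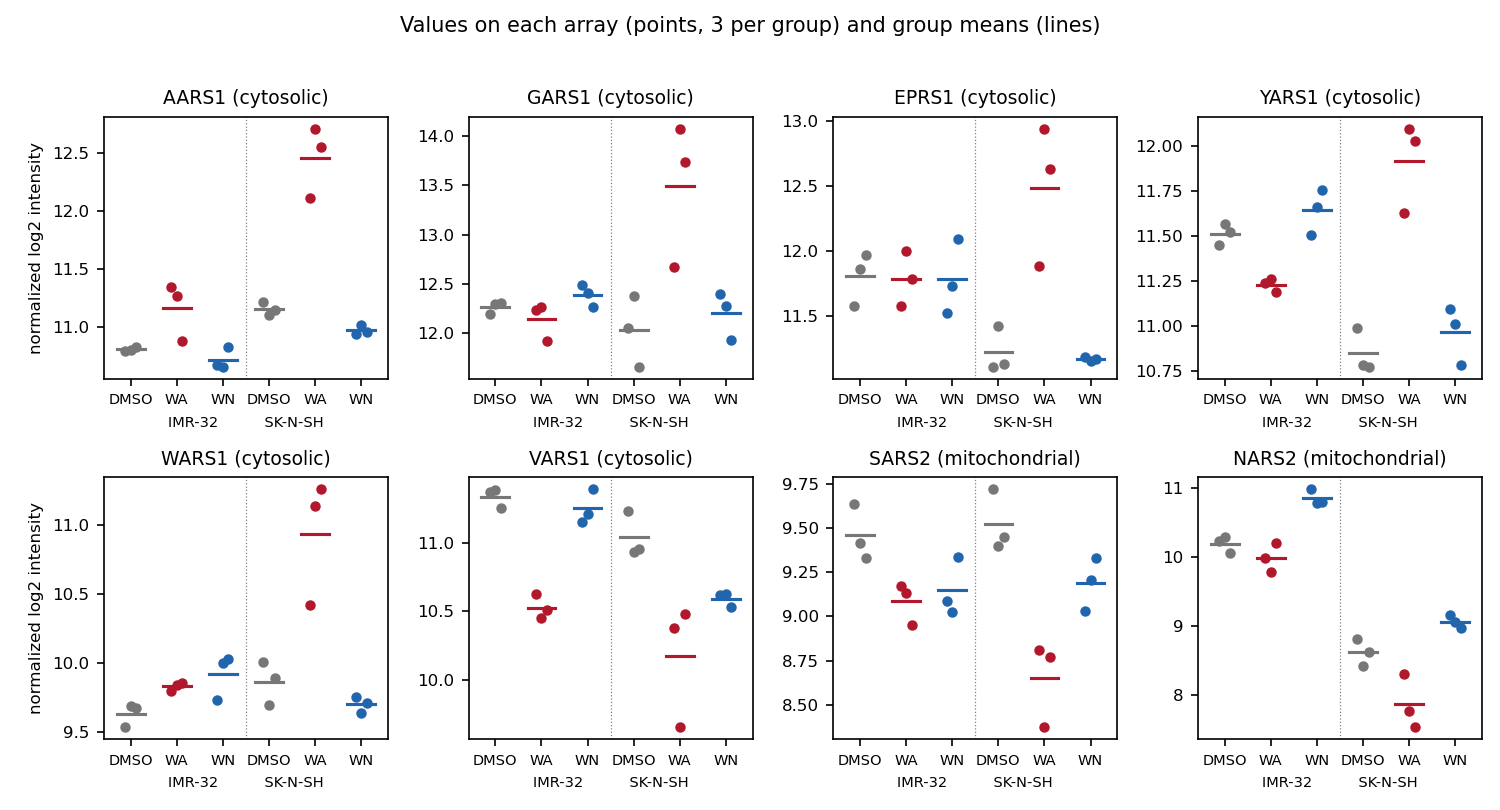
Normalized log2 intensity (vertical axes, each with its own range) of 8 members on every array, 3 points per group, with group means as lines and groups by line and treatment along the horizontal axes. AARS1, GARS1, EPRS1, YARS1 and WARS1 with WA in SK-N-SH stand above the other groups' means, and WA replicate 1 is the lowest of the 3 WA points in each, while SARS2 and NARS2 are lowest with WA in SK-N-SH.

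WA replicate 1 of SK-N-SH stood lower than the other WA replicates in this response. It was the lowest of 3 WA arrays for 10 of the 11 cytosolic genes that rose, the exception being SARS1. ATF4 itself read 13.05 on that array against 13.60 and 13.11 on the other WA arrays and 12.04, 11.84 and 11.87 with DMSO. The median of 30 ATF4 targets outside the synthetases stood 1.19 above the DMSO mean on that array, and 2.09 and 1.64 above it on the others. Without WA replicate 1, AARS1, GARS1, EPRS1, WARS1 and YARS1 kept their calls in SK-N-SH.

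Marker lists of adrenergic neuroblasts, the cell type of these lines, and of other cell types were read beside these changes. With WA 4 of 7 tested adrenergic neuroblast markers fell and 0 rose in SK-N-SH, whereas 2 fell and 1 rose in IMR-32. Its summed linear level was 15625 to 30441 with DMSO and 9613 to 15748 with WA in SK-N-SH, and 15249 to 18280 and 9275 to 10702 in IMR-32. Of 6 mesenchymal markers 0 rose and 1 fell in SK-N-SH and 1 rose and 0 fell in IMR-32. CD68, the single immune marker tested, had a linear level of 239.7 to 314.6 with DMSO and 495.2 to 699.5 with WA in SK-N-SH and rose by 1.13, while the T cell gene CD3E was detected on 0 arrays. HBA1, the single erythroid marker tested, was detected on the 3 IMR-32 arrays with WA and on 0 with DMSO, at least 2.21-fold higher with WA (means 6.23 against 4.53, adjusted p = 0.0019, limma), with HBB detected on 0 arrays. These are RNA levels in cultures of a single established line each, not counts of cells of another type. The part of these shifts in the synthetase changes was not tested.

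Pairs of enzymes for the same amino acid were set side by side. There were 15 pairs over 14 amino acids, in which EPRS1 is paired with both EARS2 and PARS2, and FARS2 with both FARSA and FARSB. With WA in SK-N-SH the cytosolic partner had the larger difference in 12 of 15 pairs, and in IMR-32 in 8 of 15. The pair for alanine had the widest gap, with AARS1 at 1.30 and AARS2 at −0.49. Serine gave 0.55 for SARS1 against −0.87 for SARS2, threonine gave 0.89 for TARS1 against −0.63 for TARS2, and asparagine gave 0.54 for NARS1 against −0.75 for NARS2. In each of these 4 pairs the cytosolic gene rose and the mitochondrial gene fell in SK-N-SH. Valine ran the other way, with VARS1 at −0.87 and VARS2, which did not pass, at −0.10.

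**Figure D3:**
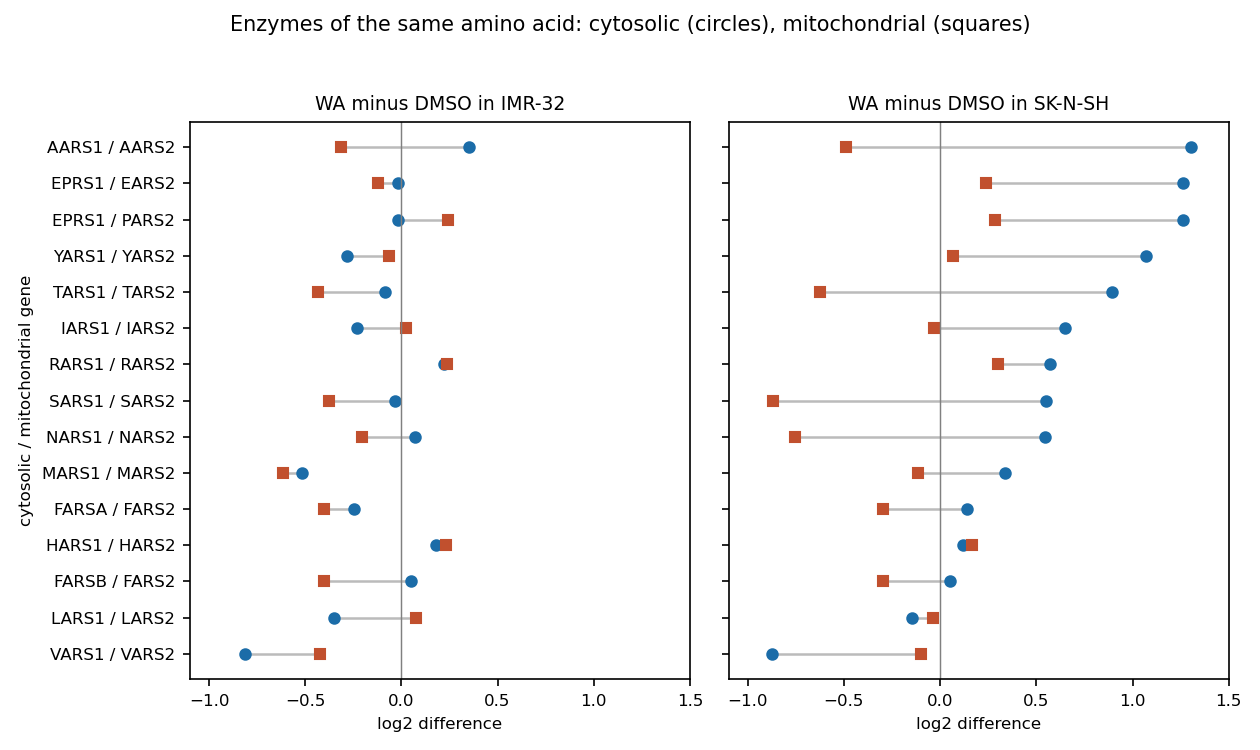
Log2 difference of WA against DMSO (horizontal axes) for the cytosolic gene (circles) and the mitochondrial gene (squares) of each amino acid, joined by lines, in IMR-32 on the left and SK-N-SH on the right. In SK-N-SH the circle lies right of the square in 12 of 15 pairs, in IMR-32 in 8 of 15.

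In IMR-32 cells WA raised no tested synthetase gene past the threshold. Of the 18 cytosolic genes 0 rose and 2 fell, with a median of −0.06, and of the 15 mitochondrial genes 0 rose and 2 fell, with a median of −0.21. Over all genes 8.04% rose and 6.47% fell, with a median of 0.02. AARS1 read 10.80, 10.81 and 10.83 with DMSO and 11.35, 11.27 and 10.88 with WA, a difference of 0.35 ± 0.15 that did not pass (adjusted p = 0.134, limma). Without WA replicate 3, AARS1 passed at 0.50 (adjusted p = 0.0465). GARS1 gave −0.13, EPRS1 −0.02, WARS1 0.20 and YARS1 −0.28, none past the threshold. The 95% interval of GARS1 ran from −0.69 to 0.44 and that of EPRS1 from −0.48 to 0.45.

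The 4 members that fell in IMR-32 were VARS1, MARS1, CARS2 and MARS2. VARS1 read 11.37, 11.39 and 11.26 with DMSO and 10.63, 10.45 and 10.51 with WA, with no overlap, and fell by 0.81 (standard error 0.17, adjusted p = 0.00499, limma). In that comparison the groups did not overlap for 40.4% of all genes. The dim VARS1 probe gave −0.24 there. MARS1 read 10.59, 10.46 and 10.65 with DMSO and 10.13, 9.99 and 10.04 with WA, a difference of −0.51 ± 0.10 (adjusted p = 0.0032, limma), opposite in sign to its increase in SK-N-SH. MARS2, the mitochondrial methionyl enzyme, read 8.62, 8.58 and 8.52 with DMSO and 7.84, 7.90 and 8.14 with WA, a difference of −0.62 ± 0.15 (adjusted p = 0.0101, limma). CARS2 differed by −0.63 ± 0.18 (adjusted p = 0.0236, limma). The MARS2 call was lost without WA replicate 1 (adjusted p = 0.0519), and that of CARS2 without WA replicate 1 or 2 or DMSO replicate 2 or 3 (0.0734 to 0.104). VARS1 was the cytosolic gene and CARS2 the mitochondrial gene that fell in both lines.

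The count of mitochondrial genes lower with WA in IMR-32 depended on single arrays and on the fit. It was 0 without WA replicate 1, 3 without DMSO replicate 1 (TARS2 at −0.54, adjusted p = 0.0429) and 1 without WA replicate 2, DMSO replicate 2 or DMSO replicate 3. With the replicate number as a block it was 4, because TARS2 (−0.43, adjusted p = 0.0395 against 0.0596 without the block) and FARS2 (−0.40, adjusted p = 0.0481 against 0.115) passed as well. Differences were below 0 for 10 of the 15 mitochondrial genes in each line, and for 8 in both lines. Among all 12975 genes 6180 lay below 0 with WA in IMR-32 cells, and the count for SK-N-SH was 6228. Whether the mitochondrial share differed from that of all genes was not tested. SARS2 gave −0.38, TARS2 −0.43, AARS2 −0.32 and NARS2 −0.21 in IMR-32, beside their decreases in SK-N-SH. None of these genes passed in IMR-32 with the fit reported.

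Whether the WA effect differed between the lines was tested gene by gene as an interaction. It was larger in SK-N-SH than in IMR-32 for 8 of 18 cytosolic genes and smaller for 0, against 3.31% of all genes larger and 3.35% smaller. The median difference was 0.53 over the cytosolic genes, −0.06 over the 15 mitochondrial genes and 0.00 over all genes. GARS1 differed by 1.59 ± 0.38 (adjusted p = 0.0192, limma), YARS1 by 1.35 ± 0.19 (0.000839), EPRS1 by 1.28 ± 0.31 (0.0213) and TARS1 by 0.98 ± 0.22 (0.0157). The others were AARS1 at 0.95 ± 0.21, IARS1 at 0.88 ± 0.23, WARS1 at 0.88 ± 0.25 and MARS1 at 0.85 ± 0.15. All 8 had risen with WA in SK-N-SH. SARS1 differed by 0.59 (adjusted p = 0.0556, limma) and passed with the replicate block (adjusted p = 0.0345), without IMR-32 WA replicate 3 (0.68, adjusted p = 0.0396) and without SK-N-SH WA replicate 1 (0.58, adjusted p = 0.0435). It passed as well with the deposited series matrix, the deposited detection p-values or robust trended variances. The same held without background correction, without the detection filter and with probes detected on all arrays of a group (limma, adjusted p from 0.0214 to 0.0485 over these alternatives). With kept probes averaged, or without any other single array, SARS1 did not pass.

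Of the mitochondrial genes 0 passed that interaction test with limma and 3 of 15 had an unadjusted p under 0.05, against 23.1% of all genes. These were MARS2 at 0.50, SARS2 at −0.50 and NARS2 at −0.55. NARS2 passed without SK-N-SH WA replicate 1 (−0.76, adjusted p = 0.0209), and so did the cytosolic QARS1 as a smaller effect in SK-N-SH (−0.67, adjusted p = 0.0178). The count of cytosolic genes was 5 without each of 6 arrays, namely IMR-32 DMSO replicates 2 and 3, IMR-32 WA replicate 1, SK-N-SH DMSO replicate 1 and SK-N-SH WA replicates 2 and 3. EPRS1, IARS1 and WARS1 were the calls lost there, with adjusted p between 0.0511 and 0.107. WARS1 in fact passed without SK-N-SH WA replicate 1 alone, losing its call without each of the other 11 arrays, and IARS1 lost its call without 9 of 12, adding IMR-32 DMSO replicate 1 and WA replicates 2 and 3.

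**Figure D4:**
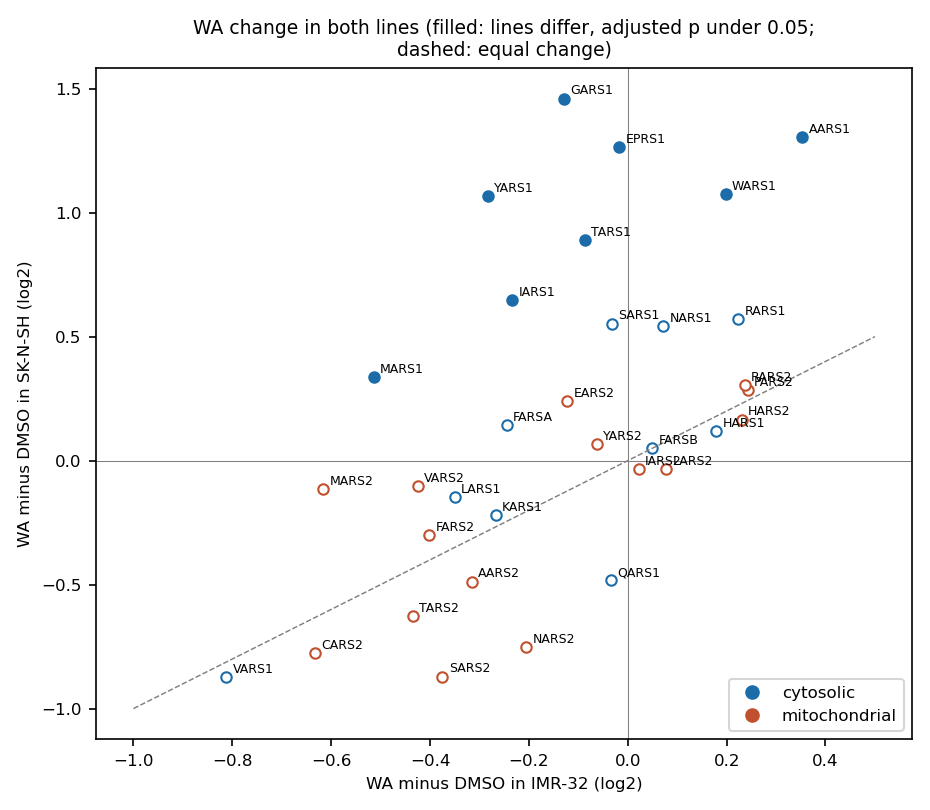
Log2 difference of WA against DMSO in IMR-32 (horizontal axis) and SK-N-SH (vertical axis) for each of the 33 members, cytosolic in blue and mitochondrial in orange, with the dashed line at equal change. The 8 filled points, all cytosolic and above the line, passed the test of a difference between lines.

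The ATF4 pathway was read from 30 targets outside the synthetases. With WA 13 of them rose and 0 fell in IMR-32, with a median of 0.33 (0.27 with 3 genes at background in DMSO set to their bound), and 26 rose and 0 fell in SK-N-SH, with a median of 1.64, also with 2 such genes at their bound. ATF4 gave 0.40 ± 0.14 in IMR-32 (adjusted p = 0.0688, limma) and 1.34 ± 0.14 in SK-N-SH, where it rose. DDIT3, a transcription factor of the stress response, rose by 3.51 in SK-N-SH and 2.38 in IMR-32. In the same order TRIB3, an inhibitor of ATF4 output, rose by 3.38 and 1.46, and the stress factor ATF3 by 3.13 and 1.29. CHAC1, which degrades glutathione, was not well above background on any DMSO array, so only bounds can be given: it was at least 7.36-fold higher in SK-N-SH (means 7.84 against 4.57, adjusted p = 1.01e-06, limma) and at least 1.3-fold higher in IMR-32 (5.46 against 4.29, adjusted p = 0.00782, limma). Such a bound sets the bright group's mean against the lowest signal well above background on each dim array, or the probe's own value where that was higher. ASNS, asparagine synthetase, rose by 1.90 and 0.83. The interaction test found 12 of 30 targets with a larger WA effect in SK-N-SH and 0 with a smaller one, and ATF4 itself passed it as well (0.93 ± 0.20, adjusted p = 0.0117, limma). DDIT3 and ASNS did not pass that test (1.13, adjusted p = 0.128, and 1.07, adjusted p = 0.0615). In IMR-32 cells DDIT3, TRIB3 and ATF3 rose, but 17 of the 30 targets did not pass. Of the 18 cytosolic synthetase genes 0 rose there, against 8.04% of all genes. Whether the synthetase genes followed these targets was not tested.

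Other parts of the translation machinery were compared as lists. Of 6 cytosolic elongation factors 0 passed with WA in IMR-32 and 1 fell in SK-N-SH, EEF1G at −0.40. Of 9 tested mitochondrial translation factors, MTFMT, which formylates the initiator methionyl transfer RNA, rose by 0.50 and TSFM, an elongation factor, fell by 0.46 in IMR-32, while MTIF2 and MRRF, acting in initiation and ribosome recycling, rose by 0.45 and 0.43 in SK-N-SH. None of the 3 subunits of the mitochondrial glutaminyl-tRNA amidotransferase, which makes the glutaminyl transfer RNA that has no synthetase of its own there, passed in either line. Among 4 enzymes and factors of selenocysteine insertion, SEPSECS and PSTK, which convert seryl to selenocysteinyl transfer RNA, rose by 0.99 and 0.62 in SK-N-SH, and SECISBP2 fell by 0.60 in IMR-32. None of the 3 scaffold proteins of the multisynthetase complex was tested.

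With WN few members moved. In SK-N-SH 0 of 18 cytosolic and 0 of 15 mitochondrial genes passed with limma, against 0.925% of all genes higher and 0.909% lower, and 4 genes of each class had an unadjusted p under 0.05, against 17% of all genes. KARS1 came closest, reading 10.06, 10.21 and 10.10 with DMSO and 10.58, 10.80 and 10.52 with WN. All WN arrays of KARS1 were above all DMSO arrays, and its difference was 0.51 ± 0.14 (adjusted p = 0.0695, limma). In that comparison the groups did not overlap for 21.8% of all genes. CARS2 differed by −0.61 ± 0.18 (adjusted p = 0.0856) and passed with the replicate block (adjusted p = 0.0454). The median difference was −0.05 over the cytosolic genes and 0.00 over the mitochondrial genes. AARS1 gave −0.18 with a 95% interval from −0.50 to 0.14, and YARS1 gave 0.12 with an interval from −0.17 to 0.40.

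In IMR-32 WN raised 1 cytosolic and 2 mitochondrial genes and lowered 0 of either class, against 2.4% of all genes higher and 2.19% lower. RARS1 read 11.19, 11.17 and 11.17 with DMSO and 11.84, 11.93 and 11.93 with WN, with hardly any spread inside either group, and rose by 0.72 ± 0.12 (adjusted p = 0.00528, limma). NARS2 read 10.24, 10.29 and 10.07 with DMSO and 10.99, 10.79 and 10.81 with WN, a difference of 0.66 ± 0.18 (adjusted p = 0.0414, limma). HARS2, the mitochondrial histidyl enzyme, differed by 0.45 ± 0.12 (adjusted p = 0.0475, limma). The calls of NARS2 and HARS2 were lost without any 1 of the 6 arrays compared, at adjusted p between 0.0677 and 0.15, so the count of mitochondrial genes was then 0. RARS1 kept its call without each. The difference between lines in the WN effect passed for 0% of genes in either direction, members included, and 1 member, RARS1, had an unadjusted p under 0.05 (−0.44), against 3.68% of all genes.

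The compounds were compared directly at the same dose and time. In SK-N-SH 10 of 18 cytosolic genes were higher with WA than with WN and 2 were lower, with a median of 0.49, against 20.7% and 17.7% of all genes. AARS1 was 1.49 ± 0.15 higher (adjusted p = 4.15e-06, limma), EPRS1 1.32 ± 0.22, GARS1 1.29 ± 0.27, WARS1 1.24 ± 0.17 and YARS1 0.95 ± 0.14. FARSA, at 0.36 (adjusted p = 0.0409), was the weakest of the 10. KARS1 read 10.58, 10.80 and 10.52 with WN and 9.86, 9.83 and 10.03 with WA, a difference of −0.73 ± 0.14 (adjusted p = 0.00068, limma), and QARS1 differed by −0.45. FARSA lost its call without WA replicate 1 or 3 or any WN replicate (adjusted p from 0.0748 to 0.136), and QARS1 without WA replicate 2 or 3 or WN replicate 1 or 2 (0.0876 to 0.185). MARS1 and RARS1, which rose with WA against DMSO, gave 0.26 and 0.29 against WN (adjusted p = 0.0578 and 0.0627, limma). VARS1, at −0.42 (adjusted p = 0.0653), passed without WA replicate 1 (−0.53, adjusted p = 0.0341) or 3 (−0.58, adjusted p = 0.0224).

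The mitochondrial genes that passed were lower with WA than with WN. In SK-N-SH 0 were higher and 5 were lower, with a median of −0.09, and NARS2 had the largest difference at −1.19 ± 0.18 (adjusted p = 8.81e-05, limma). NARS2 read 9.16, 9.06 and 8.96 with WN, above all 3 DMSO arrays, and 8.31, 7.77 and 7.53 with WA, below all of them. The others were AARS2 at −0.72, SARS2 at −0.54, TARS2 at −0.46 and FARS2 at −0.45. The count was 3 without WN replicate 3, and 3 when SK-N-SH was fitted alone. FARS2 lost its call without WA replicate 2 or 3 or WN replicate 2 or 3 (adjusted p from 0.0505 to 0.183), TARS2 without WA replicate 1 or WN replicate 2 or 3 (0.0524 to 0.0706) and SARS2 without WA replicate 2 (0.0586). PARS2, the prolyl enzyme, was 0.46 higher with WA in SK-N-SH (adjusted p = 0.0523) and passed without WN replicate 1 (0.57, adjusted p = 0.0414) or 2 (0.59, adjusted p = 0.0321), with the replicate block (adjusted p = 0.0308) and with probes detected on all arrays of a group (adjusted p = 0.0485). VARS2, at 0.32, passed as higher without WA replicate 2 (0.46, adjusted p = 0.0284). In IMR-32 0 were higher and 4 were lower, with a median of −0.31, against 12.6% of all genes higher and 11.2% lower. MARS2 differed there by −0.97 ± 0.15 (adjusted p = 0.000258, limma), NARS2 by −0.87, FARS2 by −0.67 and AARS2 by −0.44. The AARS2 call was lost without WN replicate 1 (−0.38, adjusted p = 0.0548), and LARS2, at 0.29, passed as higher without WN replicate 3 (0.43, adjusted p = 0.0442).

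Among cytosolic genes of IMR-32 only AARS1 was higher with WA than with WN, by 0.44 ± 0.15 (adjusted p = 0.0414, limma), and 5 were lower. These were VARS1 at −0.73, MARS1 at −0.72, KARS1 at −0.52, RARS1 at −0.50 and YARS1 at −0.41. The mean of both VARS1 probes gave −0.30 and did not pass (adjusted p = 0.128). The count of 6 was 3 without WA replicate 2 and 3 without WN replicate 2. AARS1 lost its call without WA replicate 1 or 2 or WN replicate 1 or 2 (adjusted p from 0.106 to 0.164), YARS1 without any WA replicate or WN replicate 2 or 3 (0.0816 to 0.115) and KARS1 without WA or WN replicate 2 (0.0669 and 0.0502). For EPRS1 the compounds differed by 0.00 in IMR-32, with a 95% interval from −0.46 to 0.47, and for NARS1 by 0.01, with an interval from −0.28 to 0.30.

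With DMSO 15 of 33 members (45.5%) differed between the lines, against 51.5% of all genes, so the count says nothing particular about synthetases. Of the 18 cytosolic genes 4 were higher in SK-N-SH than in IMR-32 and 4 were lower, against 27% and 24.5% of all genes, and 2 mitochondrial genes were higher and 5 lower. NARS2 had the largest difference, at 8.81, 8.43 and 8.63 in SK-N-SH against 10.24, 10.29 and 10.07 in IMR-32, or −1.58 ± 0.18 (adjusted p = 1.2e-06, limma). SARS1 read 9.77, 9.72 and 9.63 in SK-N-SH and 10.78, 10.97 and 10.90 in IMR-32, a difference of −1.18 ± 0.12. MARS2 at −1.08, TARS2 at −1.05, YARS2 at −0.90 and AARS2 at −0.72 were the other mitochondrial genes that were lower. KARS1 at 0.93, RARS1 at 0.65, HARS1 at 0.58 and QARS1 at 0.54 were higher in SK-N-SH, as were HARS2 at 0.47 and RARS2 at 0.39. YARS1 at −0.66, IARS1 at −0.61 and EPRS1 at −0.58 were lower. The EPRS1 call was lost without IMR-32 DMSO replicate 2 or 3 or SK-N-SH DMSO replicate 1 or 3, with adjusted p from 0.0889 to 0.117. IARS2 passed as higher without SK-N-SH DMSO replicate 1 (0.45, adjusted p = 0.0247), and CARS2 as lower without SK-N-SH DMSO replicate 3 (−0.51, adjusted p = 0.0416).

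EPRS1, YARS1 and IARS1 changed order between the lines. EPRS1 with DMSO averaged 11.80 in IMR-32 cells against 11.22 in SK-N-SH, and 11.78 and 12.48 with WA. YARS1 averaged 11.51 and 10.85 with DMSO, and 11.23 and 11.92 with WA. IARS1 averaged 11.35 and 10.74 with DMSO, and 11.12 and 11.39 with WA. Each was thus lower in SK-N-SH with DMSO and had the higher mean there with WA, a comparison of lines with WA that was not tested.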

How the data were processed

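The members and gene lists were chosen with earlier results of these data known. Per the file headers, the deposited table holds for each of 47224 probes and 18 arrays a bead signal, an intensity on a linear scale without normalization, and a detection p-value. The authors' deposited series matrix holds log2 values and served as an alternative. Per the submitters' processing notes limma was used for it, and its scaling and centring stay unknown.

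Leaving out 2 probes that had missing values, signals were normalized with neqc (normexp background, offset 16, quantile, log2) in limma 3.58.1 and R 4.3.3. On the 6 WN arrays 66.5% to 68.1% of deposited detection p-values followed the signal, against at least 99.99% on the others, so they were rederived from each array's own signals, a change made after seeing the data. Probes with detection p under 0.01 on at least 3 arrays were kept (23320), and each gene was read from its brightest kept probe, named through the platform's probe table. All arrays were fitted together (lmFit, 1 mean per group, 12 residual degrees of freedom, eBayes), with Benjamini-Hochberg adjustment over 12975 genes. The fit was also run on simulated data with independent errors and 1 spread per gene. That run leaves out dependence between arrays of the same replicate number and unequal spread of the lines, so it cannot check the p-values against either.

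All members were described, and from each comparison list up to 4 genes past the threshold plus ATF4, DDIT3, ASNS, TRIB3, ATF3 and CHAC1 were open to naming. The labels call the replicates biological but not how they were separated, so p-values measure the spread between these samples. Arrays of the same replicate number deviated together from their group means against DMSO (lowest r 0.161 across genes). A fit with the replicate number as a block was run as an alternative. The fit reported has no such block, so its p-values are unpaired and leave that dependence out. Paired values are given only where a sentence names the replicate block. The number of arrays limits the precision. Plots used matplotlib 3.10.9 (Python 3.11.15).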

Additional observations from a re-analysis of the deposited data

Results flagged for a closer look

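For 8 cytosolic synthetase genes the WA effect differed between the cell lines by an interaction test (limma, adjusted over all genes), each time larger in SK-N-SH. The log2 difference between lines was 1.59 for GARS1 (adjusted p = 0.0192), 1.35 for YARS1 (0.000839), 1.28 for EPRS1 (0.0213) and 0.98 for TARS1 (0.0157). It was 0.95 for AARS1 (adjusted p = 0.0144), 0.88 for IARS1 (0.0285), 0.88 for WARS1 (0.0437) and 0.85 for MARS1 (0.00319). The calls of EPRS1, IARS1 and WARS1 were lost when some single arrays were left out, and the count was then 5 at the lowest. WARS1 lost its call without every array of the comparison except SK-N-SH WA replicate 1.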

How the results depend on the processing

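No member changed the direction of a called difference under any alternative run. The count of mitochondrial genes past the threshold with WA in IMR-32, 2 in the report, was 5 with the deposited series matrix, 5 without background correction, 4 with the deposited detection p-values, 4 with the replicate block and 5 with each line fitted alone. Cytosolic genes with WN in SK-N-SH, 0 in the report, came to 1 with the deposited series matrix, without background correction, with the deposited detection p-values and with robust trended variances, each time KARS1. Mitochondrial genes there came to 1 with the replicate block, and those that differed in SK-N-SH between the compounds, 5 in the report, to 3 with each line alone. Leaving out 1 array at a time gave 0 to 3 mitochondrial genes for WA in IMR-32, 0 for WN in IMR-32, 3 to 5 cytosolic genes between the compounds in IMR-32, 3 to 6 mitochondrial genes between them in SK-N-SH, 5 to 10 cytosolic and 0 to 1 mitochondrial genes for the difference between lines with WA, 11 to 13 cytosolic and 5 to 6 mitochondrial genes for WA in SK-N-SH. The cause of these changes was not tested. Averaging the kept probes ended the IARS1 difference between lines (0.60, adjusted p = 0.0928) and the VARS1 difference between WA and WN in IMR-32 (−0.30, adjusted p = 0.128), and testing without the detection filter ended the WARS1 difference between lines (adjusted p = 0.0516). With SK-N-SH fitted alone IARS1, MARS1, QARS1 and RARS2 did not pass with WA (adjusted p = 0.0525, 0.0815, 0.108 and 0.137). In WA and WN arrays of the same number the deviations correlated less (lowest r 0.042). The replicate block spans all groups of a line, so where it is named it pairs these arrays as well.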
